A study of Mus musculus with 4 samples.

Results

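Fos, Fosb, Jun, Junb, Egr1, Egr2, Egr3, Ier2, Atf3 and Dusp1 are immediate early genes of the FOS, JUN and EGR response, and they were looked up by symbol among the 31053 genes of the feature table. All 10 were found once, and their unique molecular identifiers (UMIs) were compared across marker-gated cell types and between 2 housing temperatures. The cells were live ChAT-eGFP+ cells, sorted from the stromal vascular fraction of inguinal white adipose tissue (IWAT) of male ChATBAC-eGFP mice. In these mice a bacterial artificial chromosome transgene reports the Chat gene with green fluorescent protein, so that the cells described are those with reporter signal and not all cells of the tissue. The mice were 5 weeks old at the start and were housed at 30 °C (thermoneutrality) for 3 weeks. They then stayed at 30 °C for another 4 h or were taken to 4 °C for 4 h. According to the methods, the mice taken to 4 °C had first spent a day at room temperature, and this step and the cold cannot be told apart. Each group had 2 libraries, and each library held the pooled cells of 4 mice, so the spread between libraries is a spread between pools.

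Immediate early genes are transcribed within minutes of a stimulus without new protein synthesis, from promoters that are bound in advance by serum response factor with its ternary complex partners and by CREB. FOS and JUN proteins pair to form the transcription factor AP-1, EGR proteins are zinc finger factors that bind GC-rich sites, and DUSP1 is a phosphatase that switches the inducing MAP kinases off again. The same genes are well known to be induced when a solid tissue is cut and digested with warm enzymes, and every library here went through such a digestion. No library made without digestion was analysed here, so that levels of the tissue and levels of the procedure cannot be told apart.

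The DNA just before the transcription start of these genes is shown for 3 of them, because the motifs of the inducing factors can be read in it. RefSeq promoter entries (GRCm38.p6) were found for 7 of the 10 genes, with 5 entries for Egr2. Only the 250 bases before the start are used here, so sites further upstream are not seen. The capitals mark matches, on either strand, to a CArG box (the site of serum response factor), to the cyclic AMP response element (CRE) TGACGTCA or to its core TGACG, which the CRE contains.
Fos (chr12:85473640-85473889, plus strand): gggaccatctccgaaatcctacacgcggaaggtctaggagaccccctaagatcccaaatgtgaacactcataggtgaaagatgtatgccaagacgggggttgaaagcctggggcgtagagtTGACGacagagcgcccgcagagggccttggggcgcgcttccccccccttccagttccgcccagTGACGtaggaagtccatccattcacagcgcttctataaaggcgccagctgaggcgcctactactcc
Egr2, entry 3 (chr10:67537619-67537868, plus strand): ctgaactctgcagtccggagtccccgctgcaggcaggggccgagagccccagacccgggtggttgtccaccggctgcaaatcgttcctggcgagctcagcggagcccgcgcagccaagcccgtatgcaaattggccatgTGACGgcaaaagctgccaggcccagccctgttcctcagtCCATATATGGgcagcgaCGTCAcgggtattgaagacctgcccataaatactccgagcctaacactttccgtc
Dusp1 (chr17:26508473-26508722, minus strand): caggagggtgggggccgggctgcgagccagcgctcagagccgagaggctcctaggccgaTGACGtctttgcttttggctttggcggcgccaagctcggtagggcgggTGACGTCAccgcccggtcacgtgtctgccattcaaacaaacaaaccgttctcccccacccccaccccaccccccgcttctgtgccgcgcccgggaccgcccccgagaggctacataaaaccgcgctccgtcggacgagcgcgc
The Fos window held CRE cores that begin 129 and 66 bases before the start. Entries 2 to 5 of Egr2 held a CArG box, as did 1.47% of 32851 promoter windows of this length, and in entry 3 it begins 72 bases before the start. Dusp1 held a whole CRE at 143 bases before the start, a match found in 1.55% of the windows. The core occurred in Fos, Fosb, Junb, Atf3, Dusp1 and entries 3 to 5 of Egr2, beside 17.8% of all windows. The AP-1 letters TGANTCA were in none of the windows of these genes (6.75% of all windows), and the EGR letters GCGNGGGCG were in that of Fosb alone (4.7%). A match is a description of letters and not evidence of binding. In the mm10 annotation Fos spans chr12:85473890-85477273 on the plus strand, Egr2 chr10:67535475-67542188 on the plus strand, Egr3 chr14:70077203-70082614 on the plus strand, Atf3 chr1:191170296-191218039 on the minus strand and Dusp1 chr17:26505590-26562128 on the minus strand.

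After the published filters on cells, 5191 and 5388 cells remained at 30 °C and 5329 and 5345 at 4 °C, with a median of 7520 to 8068 UMIs per cell. Library totals before the filters lay between 76058112 and 84468931 UMIs. Between 10 and 18 cell barcodes were shared by any pair of libraries. Gates of lineage markers, which use none of the 10 genes, placed 85.1% to 88.0% of the cells in 12 types, and no cell passed more than one gate. The names below are names of gates. All 5 check markers of each type, which its gate did not use, had UMIs in every library. ILC2-like cells also held 1006 to 1333 CPM (UMIs scaled to a fixed total per sum) of 5 T cell check markers, beside 1479 to 2534 CPM of their own. γδT cells held 1244 to 2116 CPM of the T cell markers beside 1515 to 2238 CPM of their own. Macrophages at 30 °C held 937 and 747 CPM of 5 lymphatic endothelial check markers, against 125 and 130 CPM at 4 °C. These markers include Lyve1, which the paper also counts as a marker of resident macrophages, so this sum does not tell the lineages apart. Lymphatic endothelial cells (LEC) had 27 and 18 cells at 30 °C and 7 and 8 at 4 °C and were not tested. For the other 11 types the UMIs of all cells of a type were summed within a library. In such a sum, fewer expressing cells and less RNA per expressing cell cannot be told apart.

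Of the 10 genes, 9 were higher in macrophages than in the mean of the other types (35.4% of the 13558 genes tested were), by the quasi-likelihood test of edgeR with library as a block, with p-values adjusted over all genes by the Benjamini-Hochberg method, and the median difference of the 10 was 2.56 on the log2 scale against 0.03 over all genes. LECs, which were not tested, held the 10 genes at a summed 6909 to 12770 CPM, a range that overlaps with macrophages (9871 to 12413 CPM). Stromal cells were higher for 7 genes (26.4% of all genes) and plasma cells for 6 (23.1%), with 1 lower in plasma cells (18.3%). The plasma calls were made after TMM scaling across types, and the place of plasma cells depends on it. In unscaled CPM every plasma sum was above every B cell sum for Fos, Fosb and Jun. Egr1 (21.0 to 54.7 CPM) and Egr2 (1.14 to 14.6 CPM) overlapped with B cells, and Ier2 (60.2 to 104.9 CPM) was below them (124.2 to 177.8 CPM). At the other end, 7 genes were lower in cycling B cells (21.4% of all genes) and 7 in cycling T cells (20.4%), which had no gene higher (32.6% of all genes) where cycling B cells had Egr3 alone (31.8%). In the remaining types the genes divided, with Egr3 higher (37.2% of all genes) and 5 genes lower in B cells (17.9%). In αβT cells without a Foxp3 UMI 2 were higher (23.8%) and 5 lower (16.1%), in Foxp3+ αβT cells 2 higher (23.3%) and 6 lower (16.7%), in γδT cells 2 higher (17.1%) and 4 lower (11.6%), and in mature dendritic cells (DCs) 4 higher (26.6%) and 6 lower (21.9%). ILC2-like cells were higher for Junb, Egr3 and Ier2 (28.1% of all genes were higher) and lower for Jun and Egr1 (11.6%). All these differences are between cell types of the same 4 libraries.

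**Figure D1:**
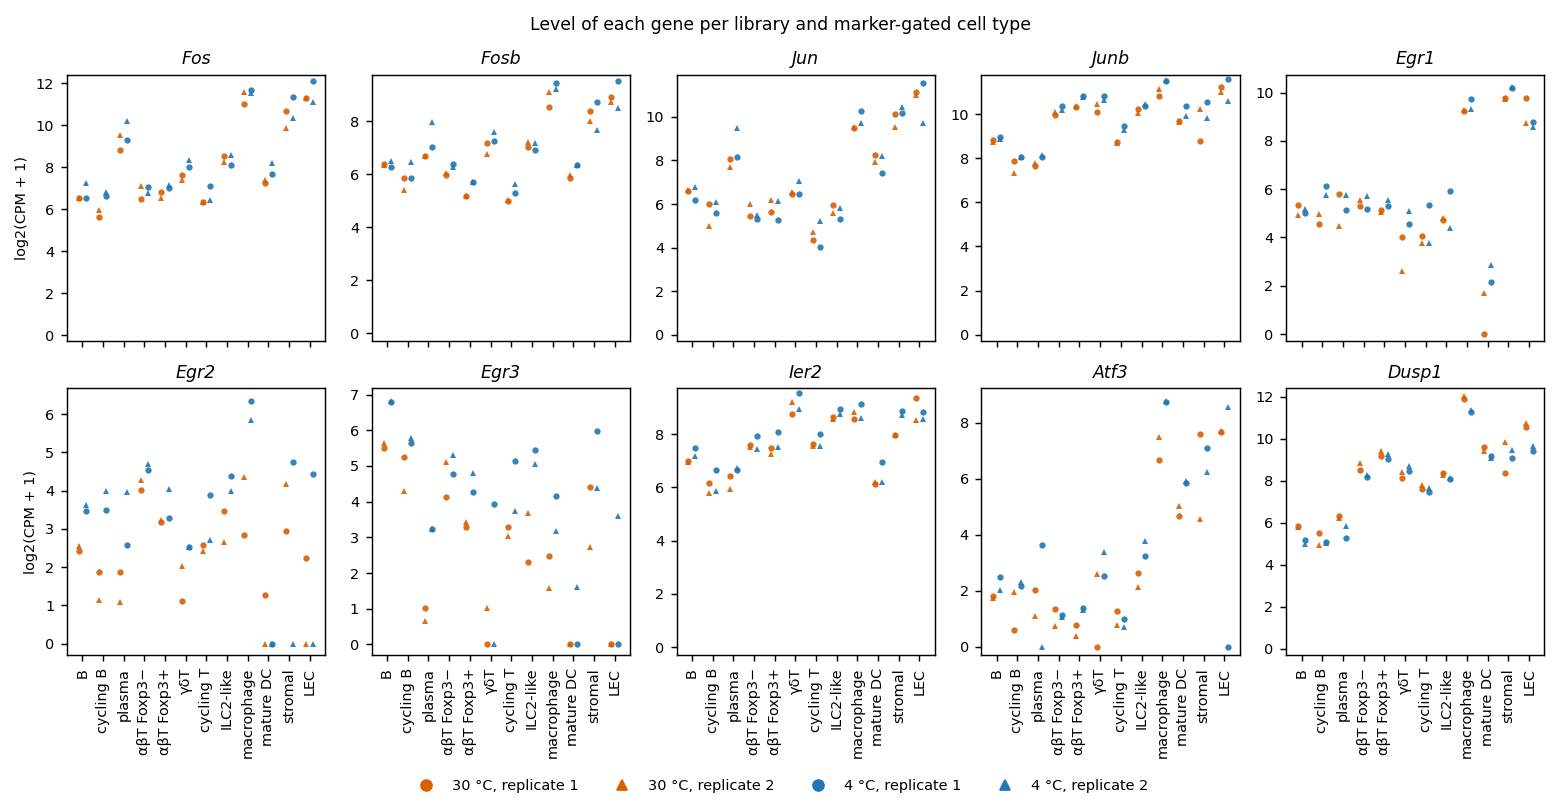
Level of each gene, as log2(CPM + 1), in every library and marker-gated cell type, with circles for replicate 1, triangles for replicate 2, orange for 30 °C and blue for 4 °C. Macrophages, stromal cells and LECs sit high for Fos, Fosb, Jun, Egr1 and Atf3, while Egr3 is highest in B cells and Egr1 to Egr3 are near 0 in mature DCs.

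Among the AP-1 genes, Fos and Fosb, which encode the FOS partners of the dimer, had a like order across types. Fos stood at 2087 and 3079 CPM in macrophages at 30 °C and at 3218 and 2917 CPM at 4 °C. In B cells it stood at 92.2 and 91.5 CPM at 30 °C, and 90.1 and 150.3 CPM in the libraries at 4 °C. Every macrophage sum was above every B cell sum, and stromal cells (935 to 2604 CPM) overlapped with macrophages. After TMM scaling across types, plasma cells reached the level of macrophages for Fos (mean log2 CPM 11.09 ± 0.55 and 11.12 ± 0.28, SD, n = 4), although their unscaled levels were 447 to 1186 CPM. The rank of plasma cells therefore depends on the scaling, while their place above B and T cells for Fos does not. Fosb was high in macrophages as well (372 to 702 CPM), where its range overlapped with that of LECs (366 to 743 CPM), and lowest on average in cycling T cells (30.8 to 49.1 CPM).

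Jun, the JUN partner with a strong transactivating activity, was high in macrophages (722 to 1229 CPM), stromal cells (731 to 1383 CPM) and plasma cells (205 to 722 CPM). LECs, with few cells, held 2235 and 2039 CPM at 30 °C, and 3032 and 832 CPM in the libraries at 4 °C. Jun was lowest on average in cycling T cells at 15.1 to 36.5 CPM, a difference of −2.80 ± 0.22 (log2, SE) from the mean of the other types (adjusted p = 8.41e-15). Junb, a JUN protein with a dampened activity of its own, had a flatter distribution. Its TMM-scaled level fell into overlapping ranges from macrophages down to cycling T cells in the order of mean levels, and the only step without overlap was the last, to cycling B cells (161 to 267 CPM). Foxp3+ αβT cells (1276 to 1792 CPM), γδT cells (1083 to 1795 CPM) and ILC2-like cells (1052 to 1406 CPM) followed macrophages (1807 to 2987 CPM).

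Atf3, a stress-induced member of the ATF/CREB family, was near 0 in αβT cells and high in macrophages. Foxp3+ αβT cells held 0.29 to 1.63 CPM and macrophages 101 to 441 CPM. The difference of macrophages from the mean of the other types was 5.48 ± 0.17 (log2, SE, adjusted p = 4.42e-30). Stromal cells (22.7 to 195 CPM) and mature DCs (24.3 to 59.8 CPM) came next. LECs, with few cells, held 201, 210, 0 and 377 CPM.

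The 3 Egr genes did not share 1 pattern. Egr1 was at 850 to 1205 CPM in stromal cells and 600 to 863 CPM in macrophages, whose ranges overlap, and at 0 to 6.19 CPM in mature DCs. Egr2 was highest on average in macrophages (6.16 to 81.1 CPM) and its ranges overlapped between every pair of neighbours in the order. Egr3 was highest in B cells, at 44.6 to 112.8 CPM, with no overlap with the next type after TMM scaling, and cycling B cells followed at 18.6 to 53.5 CPM. The difference of B cells from the mean of the other types was 3.13 ± 0.19 for Egr3 (log2, SE, adjusted p = 4.59e-19), and −0.22 ± 0.19 for Egr1 (adjusted p = 0.379). In mature DCs a library held 0 to 6 UMIs of Egr1, 0 to 1 of Egr2 and 0 to 2 of Egr3.

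After TMM scaling across types, Ier2, a small nuclear protein gene of the early response, was highest on average in γδT and ILC2-like cells. Their unscaled ranges (428 to 741 and 378 to 486 CPM) overlapped each other and that of macrophages (376 to 566 CPM). In unscaled CPM the mean of ILC2-like cells (424) was below those of macrophages (448) and LECs (465). Dusp1 stood apart in macrophages (2461 to 4207 CPM), with no overlap with mature DCs (547 to 765 CPM) or any type further down. B cells held 30.4 to 55.7 CPM and cycling B cells 29.8 to 44.3 CPM. The difference of macrophages from the mean of the others was 3.58 ± 0.09 for Dusp1 (log2, SE, adjusted p = 1.30e-33).

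Over the 44 sums the levels of Fos and Fosb had a Pearson correlation of 0.93 (log2 CPM, prior count 2), and of all 13558 genes none was closer to either. Fos with Jun gave 0.88 and Junb with Dusp1 gave 0.79. Egr3 had its highest correlation within the set with Egr2 (0.55) and was at −0.57 with Dusp1. Outside the set the most alike genes were Rhob for Fos (0.90), Laptm4a for Jun (0.91), Mras for Atf3 (0.90), C2 for Egr1 (0.85), Klhl9 for Dusp1 (0.90), Tmem30a for Ier2 (0.84), Exoc6b for Junb (0.81), Zfp827 for Egr3 (0.74), Rabggta for Egr2 (0.72) and Lars2 for Fosb (0.85). These sums come from 11 cell types in 4 libraries and share libraries and depth within a type, so they are not independent, and the correlations mostly describe which types are high.

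At the level of cells, all cells were thinned to 3000 UMIs so that depth did not set the shares. A macrophage then held a median of 5 to 6 of the 10 genes, and 66.1% to 82.3% of macrophages held 5 or more. A B cell held a median of 2, and 3.37% to 6.23% of B cells held 5 or more. ILC2-like cells lay between (median of 3, with 11.3% to 14.3% at 5 or more). Stromal cells had medians of 3 to 6, over 13 to 31 cells. Dusp1 was found in 88.4% to 98.4% of macrophages and 8.58% to 13.4% of B cells. Fos was found in 84.7% to 95.6% of macrophages and 17.5% to 26.4% of B cells, at this fixed depth. With all UMIs, Dusp1 was found in 90.6% to 100% of macrophages and 17.1% to 27.3% of B cells, and Fos in 92.9% to 97.5% and 33.8% to 44.4%.

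Between temperatures, 98 of 110 pairs of gene and cell type passed the filter on low counts, and 21 of them passed the threshold of 0.05 on the adjusted p. At 4 °C, 17 pairs were higher and 4 lower, and all 4 lower pairs were Dusp1. Of all genes tested, 0% to 8% were higher at 4 °C and 0.118% to 7.82% lower, depending on the type. Egr3 passed in 6 types, among them plasma cells and macrophages, where it had 1 to 6 UMIs a library at 30 °C and could pass the filter mainly through the 4 °C libraries. Junb rose in 4, Egr2 in 3, Fos in 2, and Fosb and Atf3 in 1 each, while Jun, Egr1 and Ier2 passed in no type. At an unadjusted p under 0.05 there were 56 pairs (57.1%, beside 18.5% of all pairs of gene and cell type). The 12 untested pairs were of Atf3 in T cells and plasma cells, of Egr2 and Egr3 in γδT, stromal and DC sums and of Egr1 in DCs, where counts were low. TMM scaling shifted the log2 fold changes by −0.11 in B cells and by −0.091 to −0.011 in the other types, relative to unscaled CPM, and all fold changes are given after it.

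**Figure D2:**
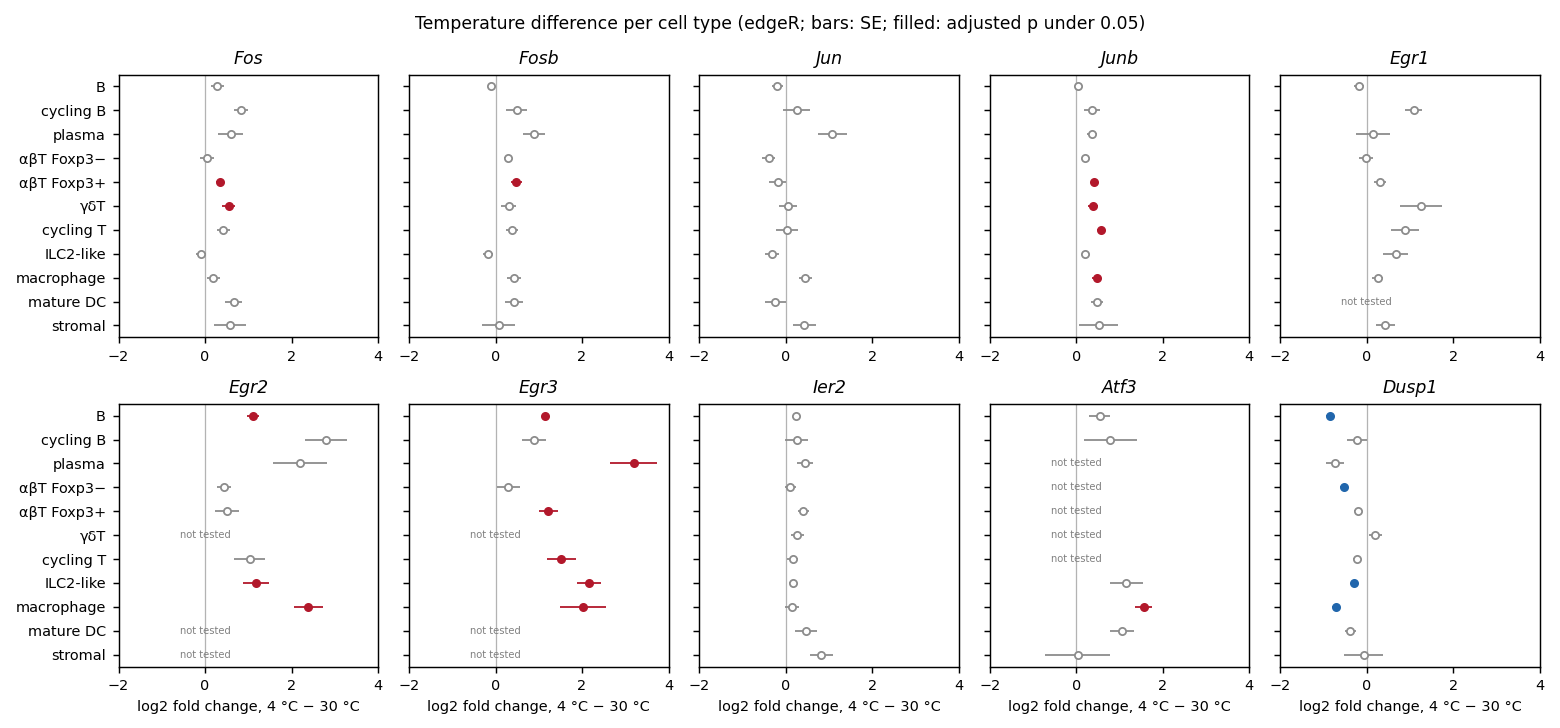
Log2 fold change of each gene between 4 °C and 30 °C in 11 cell types from edgeR, with bars for the SE and filled points for an adjusted p under 0.05 (red higher, blue lower at 4 °C). Junb, Egr2, Egr3 and Ier2 are right of 0 in every type tested, and Dusp1 is left of 0 in 10 of 11.

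By cell type, macrophages had 4 genes higher (8% of the 8854 genes tested were) and 1 lower (7.82%, with 15.8% past the threshold in either direction), and the median of the 10 was 0.44. Over all genes tested the median lay between −0.017 and 0.0028 in each of the 11 types. Foxp3+ αβT cells had 4 of 9 tested genes higher (2.43% of 10103 genes) and none lower (2.73%, 5.16% in either direction). B cells had 2 higher (6.97% of 11421 genes) and 1 lower (7.74%, 14.7% in either direction). ILC2-like cells had 2 higher (3.94% of 9166) and 1 lower (4.92%, 8.86% in either direction). In cycling T cells 2 of 9 were higher (3.06% of 10246) and none lower (3.5%, 6.57% in either direction). In γδT cells 2 of 7 were higher (1.49% of 6925) and none lower (2.02%, 3.51% in either direction). Plasma cells had 1 of 9 higher (0.132% of 6056) and none lower (0.71%, 0.842% in either direction). αβT cells without Foxp3 had none of 9 higher (1.14% of 10423) and 1 lower (2.1%, 3.24% in either direction). None passed in cycling B cells (0.0215% of 9295 genes higher, 0.118% lower and 0.14% in either direction), mature DCs (1.28%, 0.624% and 1.9% of 6411) or stromal cells (0%, 0.186% and 0.186% of 3224), where the medians of the genes tested were 0.64, 0.47 and 0.43. At an unadjusted p under 0.05 cycling B cells had 4 of 10 genes (5.99% of all genes), mature DCs 4 of 7 (14.4%) and stromal cells 1 of 8 (9.96%).

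Egr2 and Egr3, inducible zinc finger factors that in lymphocytes are known as brakes on antigen receptor responses, are described first. In B cells, Egr3 was at 44.6 and 48.8 CPM at 30 °C, and 110.2 and 112.8 CPM in the libraries at 4 °C. Both 4 °C libraries were above both 30 °C libraries, with differences between replicates that were small beside the gap. The log2 fold change was 1.15 ± 0.06 (SE, adjusted p = 2.11e-07), a 2.22-fold rise. In cells thinned to 3000 UMIs, 10.1% and 11.4% of B cells held an Egr3 UMI at 30 °C and 22.9% and 23.8% at 4 °C, so that the share of cells with a UMI moved with the sum. With all UMIs the shares were 19.7% and 20.4% at 30 °C and 39.7% and 40.5% at 4 °C. In mature DCs, which were deeper (median of 12017.5 to 14697 UMIs against 7333.5 to 8050 in B cells), the thinned share was 0% in all 4 libraries and the share with all UMIs was 0% to 2.99%.

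Egr3 in ILC2-like cells was at 3.96 and 11.8 CPM at 30 °C, and 42.3 and 31.9 CPM in the libraries at 4 °C. It rose by 2.15 ± 0.28 (log2, SE, adjusted p = 1.06e-05). The groups did not overlap, and the 30 °C libraries differed from each other (9 and 31 UMIs), so that leaving out replicate 1 at 30 °C gave a fold change of 1.62 and leaving out replicate 2 gave 3.19, both past the threshold. Here too the gene could pass the filter mainly through its 4 °C libraries. In Foxp3+ αβT cells Egr3 rose by 1.22 ± 0.22 (adjusted p = 0.000965), from 8.77 and 9.87 CPM to 18.1 and 26.7 CPM. In αβT cells without Foxp3 the libraries overlapped (16.4 and 33.8 CPM at 30 °C, 26.5 and 38.5 CPM at 4 °C) and the fold change of 0.30 ± 0.26 did not pass.

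Egr3 calls in the other types rested on fewer UMIs or on 1 library. In macrophages it was at 6 and 3 UMIs at 30 °C and 57 and 10 at 4 °C (2.03 ± 0.53, adjusted p = 0.0219), and without replicate 2 at 30 °C or replicate 1 at 4 °C the adjusted p was 0.137 and 0.465. In cycling T cells (1.52 ± 0.33, adjusted p = 0.00648) the 4 °C libraries were at 34.2 and 12.3 CPM, and without replicate 1 at 4 °C the fold change was 0.49 (adjusted p = 0.361). In plasma cells 3 and 1 UMIs at 30 °C stood against 17 and 20 at 4 °C (3.19 ± 0.54, adjusted p = 0.0327), and the call held without replicate 2 at 30 °C (0.0403) but not without replicate 1 at 30 °C (0.298), replicate 1 at 4 °C (0.0832) or replicate 2 at 4 °C (0.259). In plasma cells and macrophages the gene could pass the filter on low counts mainly through its 4 °C libraries.

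Egr2 in B cells was at 4.37 and 4.88 CPM at 30 °C, and 9.99 and 11.3 CPM in the libraries at 4 °C. The groups did not overlap, and the gene rose by 1.10 ± 0.14 (log2, SE, adjusted p = 0.000243). In macrophages it was at 6.16 and 19.4 CPM at 30 °C (8 and 29 UMIs) and at 81.1 and 57.2 CPM at 4 °C (273 and 71 UMIs). The rise was 2.39 ± 0.33 (adjusted p = 0.000389), or 5.23-fold, and both 4 °C libraries lay above both 30 °C libraries. Leaving out replicate 1 at 30 °C gave 1.82 and leaving out replicate 2 gave 3.49, both past the threshold. The share of thinned macrophages with an Egr2 UMI was 4.03% and 4.93% at 30 °C and 16.02% and 9.02% at 4 °C, or 4.44%, 14.7%, 32.1% and 20.9% with all UMIs in the same order. In ILC2-like cells Egr2 rose by 1.18 ± 0.30 (adjusted p = 0.0123), a call lost without replicate 2 at 30 °C (0.142) or replicate 1 at 4 °C (0.171). In cycling B cells Egr2 held 5 and 5 UMIs at 30 °C and 29 and 49 at 4 °C, and did not pass (adjusted p = 0.0836). In macrophages and cycling B cells Egr2 could pass the filter on low counts mainly through its 4 °C libraries.

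**Figure D3:**
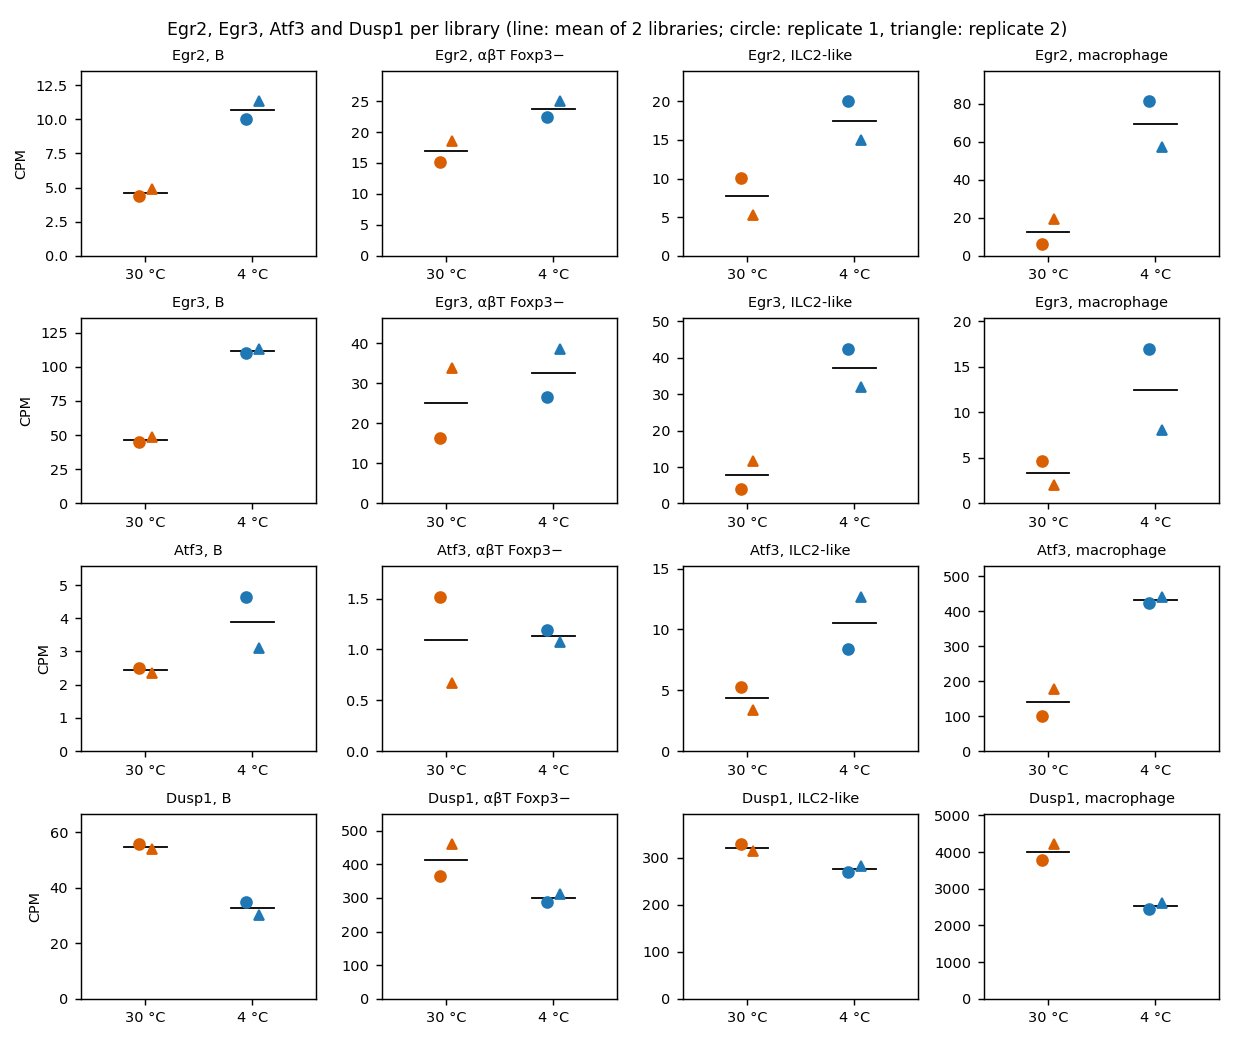
Level in CPM of Egr2, Egr3, Atf3 and Dusp1 in B cells, αβT cells without Foxp3, ILC2-like cells and macrophages, with 1 point per library and a line at the mean of the 2 libraries of a group. The groups do not overlap for Egr2 and Dusp1 in any of the 4 types, and they overlap for Egr3 and Atf3 in αβT cells without Foxp3. How often the groups of other genes do not overlap was not counted, so this order alone is not a call.

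Junb was higher at 4 °C by fold change in all 11 types, though by little. In Foxp3+ αβT cells it was at 1276 and 1335 CPM at 30 °C, and 1792 and 1767 CPM in the libraries at 4 °C. The replicates lay close together and the gap was wider than either spread, for a rise of 0.40 ± 0.05 (log2, SE, adjusted p = 3.45e-05). Cycling T cells followed, from 423 and 416 CPM to 694 and 619 CPM (0.56 ± 0.08, adjusted p = 0.000265), a call lost with strict gates (0.24, adjusted p = 0.767). In macrophages Junb rose by 0.47 ± 0.11 (adjusted p = 0.0159), from 1807 and 2262 CPM to 2854 and 2987 CPM, with an adjusted p of 0.0578 without replicate 1 at 30 °C. In γδT cells it rose by 0.39 ± 0.11 (adjusted p = 0.0388), and the adjusted p rose to 0.721 when replicate 1 at 30 °C was left out and to 0.201 when replicate 1 at 4 °C was. In B cells the difference was 0.03 ± 0.05, with 435 ± 19.8 CPM at 30 °C and 481 ± 14.2 CPM at 4 °C (SD, n = 2).

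Fos passed in Foxp3+ αβT cells, where it went from 112.3 and 91.5 CPM to 127.9 and 140.1 CPM (0.34 ± 0.10, adjusted p = 0.0463), and in γδT cells, where it went from 199 and 164 CPM to 254 and 328 CPM (0.54 ± 0.16, adjusted p = 0.0476). Both calls lay near the threshold and were lost without replicate 2 at 30 °C (0.4997 and 0.432) or replicate 2 at 4 °C (0.112 and 0.156). One of the γδT sums was small, with 23 cells in replicate 2 at 4 °C and 69 Fos UMIs. Fosb passed in Foxp3+ αβT cells alone (0.48 ± 0.12, adjusted p = 0.0215), from 35.6 and 35.4 CPM to 51.1 and 51.3 CPM, with a fold change of 0.49 and an adjusted p of 0.118 when replicate 1 at 30 °C was left out, and 0.47 and 0.105 when replicate 2 was. In macrophages the Fos libraries of the 2 temperatures overlapped and the fold change was 0.19 ± 0.15 (adjusted p = 0.451).

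Jun passed in no type and its sign was mixed, positive in 6 types and negative in 5. Its lowest fold change was in αβT cells without Foxp3 (−0.39 ± 0.15, adjusted p = 0.204) and its highest in plasma cells (1.07 ± 0.34, adjusted p = 0.264). In B cells replicate 1 at 4 °C was lowest (72.7 CPM) and replicate 2 highest (108.5 CPM), with 95.1 and 98.5 CPM at 30 °C between them. In plasma cells replicate 2 at 4 °C (721.6 CPM) stood far above the others (205 to 289 CPM).

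Egr1, which encodes the founding EGR factor, also passed in no type. Its highest fold changes were 1.25 ± 0.49 in γδT cells (adjusted p = 0.200), where sums held 5 to 19 UMIs, and 1.09 ± 0.20 in cycling B cells (adjusted p = 0.114), where 22.7 and 30.1 CPM stood against 68.1 and 53.8 CPM. In ILC2-like cells replicate 1 at 4 °C held 59.9 CPM and the other libraries 20.2 to 26.9 CPM. The fold change there was 0.67 ± 0.28, and it was −0.45 without that library. In mature DCs Egr1 could not be tested (0 and 1 UMIs against 4 and 6).

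Ier2 was higher by fold change in all 11 types, from 0.10 to 0.82, and passed in none. The lowest adjusted p was 0.0590, in Foxp3+ αβT cells (179 and 152 CPM at 30 °C, 269 and 183 CPM at 4 °C). In every one of these 11 types but plasma cells, replicate 1 at 4 °C was the highest of the 4 libraries.

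Atf3 was tested in 6 types and rose in macrophages. It was at 101 and 179 CPM at 30 °C, and 423 and 441 CPM in the libraries at 4 °C. Both 4 °C libraries were far above the higher one at 30 °C, and the rise was 1.56 ± 0.20 (log2, SE, adjusted p = 0.000218), or 2.94-fold. In thinned macrophages 15.3% and 26.8% held an Atf3 UMI at 30 °C and 47.5% and 44.3% at 4 °C, or 28.9%, 36.5%, 61.2% and 61.2% with all UMIs. In ILC2-like cells (1.16 ± 0.38, adjusted p = 0.0591) and mature DCs (1.07 ± 0.28, adjusted p = 0.0826) the libraries did not overlap either, and neither passed. B cells held 46 and 41 UMIs against 73 and 63 (0.54 ± 0.24, adjusted p = 0.171).

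Dusp1, the MAP kinase phosphatase, was the only gene of the set with calls below 0. In macrophages it was at 3796 and 4207 CPM at 30 °C, and 2461 and 2607 CPM in the libraries at 4 °C. The groups were far apart beside the spread of the replicates, and the gene fell by 0.71 on the log2 scale (SE 0.09, adjusted p = 0.000316). In B cells it fell from 55.7 and 53.9 CPM to 35.0 and 30.4 CPM (−0.86 ± 0.08, adjusted p = 1.92e-05), a 1.82-fold change. The share of thinned B cells with a Dusp1 UMI was 13.0% and 13.4% at 30 °C and 8.58% and 8.75% at 4 °C.

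Dusp1 also fell in αβT cells without Foxp3, from 366 and 459 CPM to 287 and 311 CPM (−0.52 ± 0.09, adjusted p = 0.00986). In ILC2-like cells it went from 328 and 313 CPM to 270 and 282 CPM (−0.29 ± 0.09, adjusted p = 0.0375), a call lost without replicate 1 at 30 °C (0.150), replicate 1 at 4 °C (0.247) or replicate 2 at 4 °C (0.0743). Plasma cells (−0.72 ± 0.21, adjusted p = 0.215) and mature DCs (−0.38 ± 0.12, adjusted p = 0.172) did not overlap between groups in the same direction. The exception in sign was γδT cells, where the libraries at 30 °C held 279 and 340 CPM while those at 4 °C held 349 and 418 CPM (0.20 ± 0.14, adjusted p = 0.556).

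The macrophage gate was taken apart once more, a choice made after the values were seen. Cells with UMIs of both Mrc1 and Folr2, which mark resident macrophages, were 77.7% to 79.5% of the gate in every library. Within them Egr2 (2.16 ± 0.37, adjusted p = 0.000152), Atf3 (1.73 ± 0.15, adjusted p = 8.10e-09) and Dusp1 (−0.73 ± 0.10, adjusted p = 9.17e-06) differed by about as much as in the whole gate. Jun (0.50 ± 0.12, adjusted p = 0.00514), Fosb (0.43 ± 0.15, adjusted p = 0.0430) and Egr1 (0.42 ± 0.12, adjusted p = 0.0184) passed there as well, and Egr3 did not pass the filter. Cells with both genes are most of the gate, so their likeness to the whole gate was largely given in advance. The rest of the gate was not fitted alone. In the whole gate 15.8% of all genes passed, and the share in the subset is not given here. Strict gates, which leave out cells with any marker of another lineage, kept 21 and 34 macrophages at 30 °C and 131 and 35 at 4 °C. In these fewer cells the fold changes of Egr2 (2.22, adjusted p = 0.137), Atf3 (1.76, adjusted p = 0.0678) and Dusp1 (−0.51, adjusted p = 0.235) kept their sign and did not pass. The main macrophage gate held 135 and 156 cells at 30 °C and 399 and 139 at 4 °C. Its median depths were 9199 and 9134.5 UMIs at 30 °C and 7846 and 8142 at 4 °C. Of the 5 lymphatic endothelial check markers, which include Lyve1, 3 had UMIs in every library. The part of these markers and of depth in these results was not tested.

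Whether the temperature effect differs between types was tested in 1 fit over all 44 sums. No pair of gene and cell type had an effect that differed from the mean of the other types at an adjusted p under 0.05 (0.665% of all pairs did), by edgeR, and 16 of 110 pairs had an unadjusted p under 0.05 (14.5%, beside 6.60% of all pairs). A single F test over all types, added after the values were seen, passed for Jun (adjusted p = 0.0375), Egr2 (0.0242) and Dusp1 (0.0250), as it did for 7.83% of genes. The 12 pairs left untested within a type for low counts entered this fit, among them those of Egr2. A call in 1 type and not in another is therefore shown to differ for none of the 10 genes in a named type.

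Other genes of the pathway were taken from lists. Of 31 other immediate early and feedback genes, 10 of 30 tested rose and 3 fell in B cells (6.97% and 7.74% of all genes), 3 of 29 rose and 1 fell in αβT cells without Foxp3 (1.14% and 2.1%), 11 of 28 rose and 2 fell in ILC2-like cells (3.94% and 4.92%) and 4 of 26 rose and 2 fell in macrophages (8% and 7.82%). In Foxp3+ αβT cells 11 of 29 rose and 2 fell (2.43% and 2.73%), in cycling T cells 11 of 30 rose and 1 fell (3.06% and 3.5%), in γδT cells 2 of 23 rose and 1 fell (1.49% and 2.02%) and in mature DCs 3 of 20 rose and none fell (1.28% and 0.624%), while none passed in cycling B, plasma or stromal cells. In the first 4 types their median fold changes were 0.19, 0.15, 0.27 and 0.42 where all genes had medians near 0. Nab2, which encodes a corepressor that EGR factors induce and are restrained by, rose in 6 of the 11 types. It went from 24.9 to 39.2 CPM in αβT cells without Foxp3 (0.60 ± 0.14), from 9.07 to 25.8 CPM in ILC2-like cells (1.44 ± 0.24) and from 25.7 to 53.4 CPM in macrophages (0.99 ± 0.18).

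Nr4a genes, orphan nuclear receptors induced by the same signals, were among the largest changes in B cells (Nr4a2 1.202 ± 0.36, Nr4a3 1.197 ± 0.24) and in αβT cells without Foxp3 (Nr4a1 0.49 ± 0.09). Spry1, an inhibitor of receptor tyrosine kinase signalling, fell in B cells, where it was low (1.56 to 0.275 CPM, −2.57 ± 0.45), and ILC2-like cells (−1.47 ± 0.35) and rose in αβT cells without Foxp3 (0.52 ± 0.12). Ier3 rose in ILC2-like cells (1.50 ± 0.36). In macrophages Ier5 rose by 0.82 ± 0.13 and Rgs1 fell by 1.28 (log2, SE 0.23).

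The other 10 AP-1 subunits moved in both directions. Jund rose in 6 types, among them B cells (0.14 ± 0.04), αβT cells without Foxp3 (0.33 ± 0.05) and ILC2-like cells (0.57 ± 0.07). In macrophages Batf3 rose from 30.9 to 122.6 CPM (1.94 ± 0.16), and Jdp2, a repressor of AP-1 sites, fell from 204 to 32.2 CPM (−2.92 ± 0.29). Fosl2 fell in macrophages (−1.12 ± 0.14) and B cells (−1.55 ± 0.20). In macrophages 1 of 8 tested subunits rose and 3 fell, and their median was −0.11.

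Of the 16 upstream kinases and factors, 5 rose and 2 fell in B cells (6.97% and 7.74% of all genes), 2 rose in ILC2-like cells (3.94%), 5 rose and 1 fell in macrophages (8% and 7.82%), 1 rose in cycling T cells (3.06%), and none passed in the other 7 types. Srf, the factor of the CArG box, rose in B cells from 12.3 to 19.1 CPM (0.53 ± 0.09) and in ILC2-like cells from 9.39 to 25.1 CPM (1.34 ± 0.23). In macrophages Elk3, a ternary complex factor, rose (1.44 ± 0.19), as did the kinase gene Rps6ka1 (1.03 ± 0.20), and Mkl1, a coactivator of SRF, fell from 96.4 to 38.9 CPM (−1.38 ± 0.16). B cells had Map2k1 higher (0.42 ± 0.07), and ILC2-like cells had Mapk3 higher (0.61 ± 0.15).

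Cell isolation stress was followed by 18 heat shock and isolation stress genes. Their summed level was 3400 and 3385 CPM in B cells at 30 °C and 3596 and 3679 CPM at 4 °C, and 3847 and 4096 CPM against 4244 and 4469 CPM in ILC2-like cells. In macrophages it was 5916 and 6283 CPM at 30 °C, and 4797 and 5436 CPM in the libraries at 4 °C. These sums are unscaled, and the order in B and ILC2-like cells depended on the scaling: after TMM scaling, B cells held 3534 and 3513 CPM at 30 °C against 3493 and 3512 CPM at 4 °C, and the ILC2-like sums overlapped. The sum in macrophages was lower at 4 °C either way (5971 and 6459 CPM against 4692 and 5356 CPM after scaling). In B cells 5 of 18 genes rose and 2 fell (6.97% and 7.74% of all genes). Among them were Hsph1 (0.71 ± 0.12), Hspb1 (1.17 ± 0.34, at 0.788 and 1.92 CPM) and Cebpb (−0.58 ± 0.07).

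In αβT cells without Foxp3, 5 of 18 stress genes rose (1.14% of all genes), among them Hsph1 (1.07 ± 0.23), Hspd1 (0.45 ± 0.11) and Hspa5 (0.39 ± 0.07). In ILC2-like cells 4 of 16 rose and 2 fell (3.94% and 4.92%), the latter Socs3 (−0.91 ± 0.24) and Hspa1b (−0.82 ± 0.20). In Foxp3+ αβT cells 6 of 17 rose (2.43%), in γδT cells 2 of 15 (1.49%) and in cycling T cells 2 of 17 (3.06%), with none lower. No stress gene passed in cycling B cells, plasma cells, mature DCs or stromal cells. In macrophages 1 of 17 rose (Dnaja1, 0.47 ± 0.14) and 1 fell (Cebpb, −1.46 ± 0.15), beside 8% and 7.82% of all genes. The summed level of the 10 immediate early genes was 993 and 956 CPM in B cells at 30 °C and 1098 and 1155 CPM at 4 °C, and 9871 and 12122 CPM against 12413 and 11467 CPM in macrophages. The part of isolation stress in the temperature differences was not tested.

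**Figure D4:**
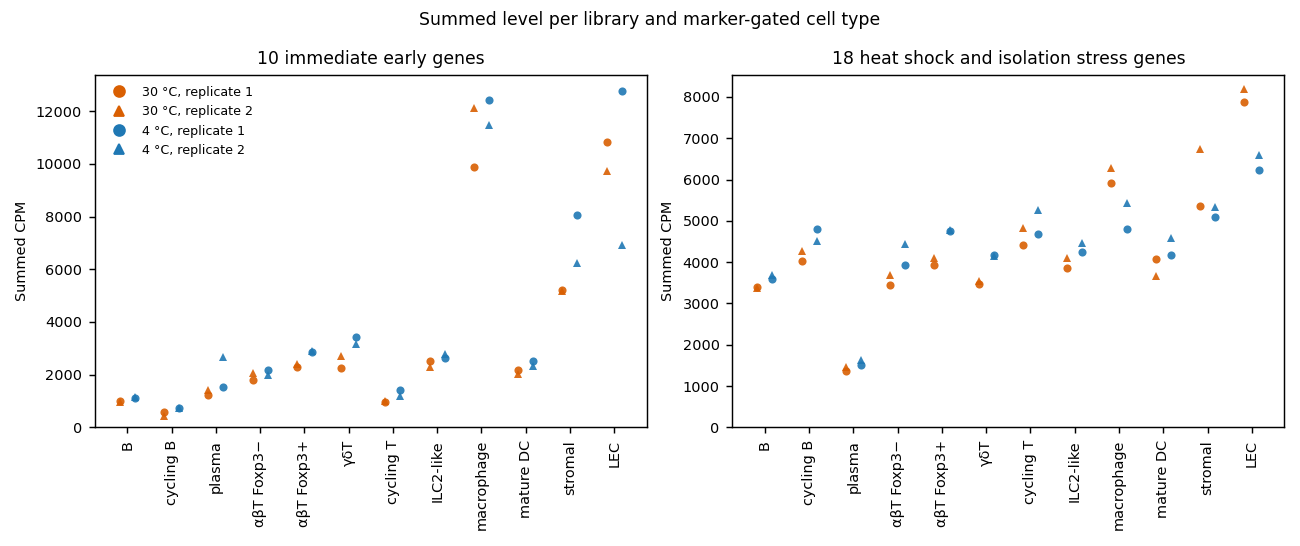
Summed level in CPM, in each library and cell type, of the 10 immediate early genes (left) and of 18 heat shock and isolation stress genes (right), with circles for replicate 1, triangles for replicate 2, orange for 30 °C and blue for 4 °C. The sums are unscaled. For the stress genes both 4 °C sums lie above both 30 °C sums in 8 types, an order that TMM scaling ends in ILC2-like cells and mature DCs and turns in B cells, and they lie below in macrophages, stromal cells and LECs, while the sums of the immediate early genes overlap in macrophages.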

How the data were processed

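The 4 sorted-cell libraries made with the 10x Genomics 3' v3 chemistry were analysed, 2 at 30 °C and 2 at 4 °C. The authors deposited filtered matrices of UMI counts per gene and cell, which their methods and the file headers credit to Cell Ranger 3.0.0 (the submitters' processing notes list 3.1.0, STAR and Seurat 4.2.0) with the mm10 genome. The counts are not normalized. Cells with 200 to 5000 genes and under 7.5% mitochondrial UMIs were kept. Cell types were gated by lineage markers, a cell being left out with more than 1 marker of another lineage. This and the upper gene limit were the only treatment of doublets. UMIs were summed per library and cell type, for types with at least 20 cells in every library. Between temperatures each type was fitted with edgeR 4.0.16 (R 4.3.3): filterByExpr, TMM and the quasi-likelihood test, then adjustment of p over all genes of that fit (Benjamini-Hochberg), with calls under 0.05. A joint fit of 44 sums with library as a block compared cell types and tested the interaction. SEs were derived from the fold change and its F statistic. Exact permutation of 2 against 2 libraries cannot go below 0.333 and was not used for calls. Each library is a separate pool of mice, so p-values between temperatures within a type measure the spread between pools. In the joint fit the library block takes up differences between pools. Its p-values are set against the spread of types within libraries, over 44 sums of 4 libraries that are not independent. Shares of cells were taken after thinning each cell to 3000 UMIs, and shallower cells were left out. The fits were tested on simulated counts. Alternatives were DESeq2 1.42.0, its size factors, no filter on low counts, a limit of 15% mitochondrial UMIs, no upper gene limit, strict gates, thinned cells, a replicate block and leaving out each library, and, chosen after the values were seen, TMM-scaled sums of the gene lists.

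The 10 genes, the gene lists and the markers were chosen with earlier results of these data known. All 10 genes were described in every type. From the lists, at most the 3 largest changes past the threshold were named per list in B cells, αβT cells without Foxp3, ILC2-like cells and macrophages. The genes named as most alike came from the 5 with the highest correlation.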

Additional observations from a re-analysis of the deposited data

Results flagged for a closer look

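The temperature effect differed among the 11 cell types for 3 genes, by a quasi-likelihood F test over all interaction terms in edgeR with Benjamini-Hochberg adjustment, a test added after the values were seen. The adjusted p was 0.0375 for Jun, 0.0242 for Egr2 and 0.025 for Dusp1. Of all 13558 genes, 7.83% passed the same test. Fold changes of Jun ran from −0.39 in αβT cells without Foxp3 to 1.07 in plasma cells, those of Egr2 from 0.43 in αβT cells without Foxp3 to 2.80 in cycling B cells (5 and 5 UMIs at 30 °C), and those of Dusp1 from −0.86 in B cells to 0.20 in γδT cells (log2). The F test of Egr2 also took in sums of mature DCs, γδT cells and stromal cells, which held 0 to 10 UMIs and were not tested within the type. No single cell type passed against the mean of the others for any of the 10 genes. The nearest was Jun in plasma cells, where the difference rests on replicate 2 at 4 °C.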

How the results depend on the processing

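The 17 higher pairs became 42 with no filter on low counts, 10 with the DESeq2 Wald test and 9 with strict gates, and the 4 lower pairs became 2 with strict gates. Leaving out 1 library gave 23 to 29 higher and 3 to 10 lower pairs, the upper ends without replicate 2 at 4 °C. The 80 calls between cell types became 37 with strict gates, where fewer pairs had a value, and 74 to 75 without a library. Of the 80, 72 to 75 were kept without a library, as were 32 of 37 with a value under strict gates, where Atf3 in B cells turned to 0.17, and 62 of 73 with thinned cells, where Egr1 in ILC2-like cells turned to 0.22. The 0 calls of an effect particular to a type became 14 with no filter, 1 with DESeq2 size factors, 2 with thinned cells, 1 with the limit of 15% mitochondrial UMIs, 1 with no upper limit on genes and 0 to 5 without a library. The 3 genes of the F test over all types became 9, 0 and 1 with no filter, strict gates and no upper limit, and 2 to 6 without a library. The causes were not tested.

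Of the 21 called pairs, 11 kept their call whichever library was left out, and 6 under every alternative named in the methods that gave a value: Egr2, Egr3 and Dusp1 in B cells, Dusp1 in αβT cells without Foxp3, Junb in Foxp3+ αβT cells and Egr3 in ILC2-like cells. Strict gates gave no value in ILC2-like cells, of which they kept 16 in replicate 2 at 4 °C. No called pair reversed. Uncalled pairs in cycling T cells reversed for Jun (−0.19) and Ier2 (−0.0022) with no upper limit on genes and for Egr1 (−0.46) with strict gates. Without a library, signs also changed for Jun in B (−0.51 to 0.045), cycling B (−0.25 to 0.79), Foxp3+ αβT (−0.67 to 0.18) and cycling T cells (−0.63 to 0.57), for Fos in B cells (−0.12 to 0.59), cycling T cells (−0.041 to 0.73) and macrophages (−0.071 to 0.51), for Egr1 in cycling T (−0.29 to 1.43) and ILC2-like cells (−0.45 to 1.13), for Ier2 in αβT cells without Foxp3 (−0.19 to 0.34), γδT (−0.12 to 0.51) and cycling T cells (−0.14 to 0.38), for Egr3 in αβT cells without Foxp3 (−0.11 to 0.92) and for Junb in stromal cells (−0.029 to 1.41).

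With the replicate number as a block there were 27 higher and 5 lower pairs, 19 of the 21 calls were kept, and Egr3 in plasma cells (adjusted p = 0.0888) and Dusp1 in ILC2-like cells (0.0771) were lost. The numbers were not shown to pair the libraries: the differences of replicate 1 and 2 correlated between temperatures by −0.039 to 0.17 over genes in the 11 types. Depth limits the types with few cells. Low counts left 12 pairs untested, among them Atf3 in αβT cells, which had 593 to 823 cells a library.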
